A study of Homo sapiens with 12 samples.

Results

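The genes described are 10 that are listed as demethylases of lysine 9 of histone H3 (H3K9). They are KDM1A, KDM3A, KDM3B, JMJD1C, KDM4A, KDM4B, KDM4C, JHDM1D (current symbol KDM7A), PHF2 and PHF8. Which histone sites their proteins act on in these cells was not measured. The 10 genes were taken by symbol. All were among the 18969 genes listed and among the 12741 with enough counts to be tested. RNA was sequenced from HCT116, a long-established line grown from a human colorectal carcinoma, as 3 groups with 4 libraries each, 12 libraries in all. DMSO recovery cells were kept for 24 h in methionine-free medium with the vehicle DMSO, then for 24 h in medium with methionine. UNC0642 recovery cells were treated alike, but with UNC0642 during the restriction and no inhibitor afterwards. UNC0642 inhibits EHMT1 and EHMT2, methyltransferases that place methyl groups on H3K9. The third group is labelled 0 hours, and the labels do not say on which side of the restriction it was taken. All groups are the same line in the same basal medium and serum, and the labels do not tell separate cultures from repeat preparations, so p-values cover the spread of these samples alone, and it may be technical.

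Methylation of H3K9 marks silent chromatin, and it is set by the balance of methyltransferases, which use S-adenosylmethionine made from methionine, and demethylases. KDM1A removes methyl groups by an FAD-dependent oxidation, whereas the Jumonji enzymes, the rest of the genes here, need iron, oxygen and 2-oxoglutarate. The KDM3 enzymes and the PHD-finger enzymes act on the lower methylation states, the KDM4 enzymes on the higher ones, and KDM3A, KDM4B and KDM4C are textbook targets of the hypoxia-inducible factors.

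Depth was 14658082 to 20179847 expected counts per library, and the biological coefficient of variation of the fit was 3.44%. Effective length was 101 to 106 bases shorter than gene length in 5 libraries (short-gap) and 120 to 127 bases shorter in 7 (long-gap), every group had libraries of either kind, and the labels do not give a reason. DMSO recovery has only 1 short-gap library, its replicate 1, so a short-gap value for it rests on a lone sample that the fit assumes to vary like the other groups. Of 8 epithelial markers 6 were at or above 1 CPM (counts scaled to a common library size) in every library, and their summed level in the 0 h, DMSO and UNC0642 groups was 4999.8 to 5122.1, 5628.7 to 5781.9 and 5642.5 to 5864.7 CPM. CEACAM1 and VIL1 were below that level, and VIL1, a brush-border protein, was at 0 in every 0 h library. Of 12 blood, fibroblast and endothelial markers 2, 1 and 0 were at 0 in every library of these groups (PTPRC and CDH5 at 0 h, CDH5 in DMSO recovery), and their summed level was 21.3 to 44.6, 27.7 to 36.3 and 28.4 to 37.2 CPM. Of the 12, 2, 1 and 1 were at or above 1 CPM in every library of the group. COL1A2, a fibroblast collagen gene among the 12, was above 1 CPM in 6 libraries, of which 3 are 0 h, 1 is DMSO recovery and 2 are UNC0642 recovery. It reached at most 6.814 CPM, in 0 h replicate 3, so it was only part of the summed level. Its part in the results below was not tested, and values without these 6 libraries are given where they end a call.

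KDM1A stood far above the Jumonji genes at every stage. On the FPKM scale, which divides by gene length and so allows levels of different genes to be compared, its mean level at 0 h was 100.4 ± 1.78 (SD, n = 4), above 93.3% of the genes tested. KDM3B followed at 22.9 ± 0.796 FPKM and KDM4A at 11.9 ± 0.561 FPKM. Below them lay PHF2 at 9.08 ± 0.553, JMJD1C at 8.97 ± 0.163, PHF8 at 7.68 ± 0.292, KDM3A at 6.99 ± 0.524, KDM4B at 5.55 ± 0.335 and KDM4C at 3.79 ± 0.228 FPKM. JHDM1D was the lowest at 0.948 ± 0.125 FPKM, a level above that of 12.8% of the genes tested. At 0 h neighbours in this order had ranges apart, except PHF2 with JMJD1C and PHF8 with KDM3A.

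**Figure D1:**
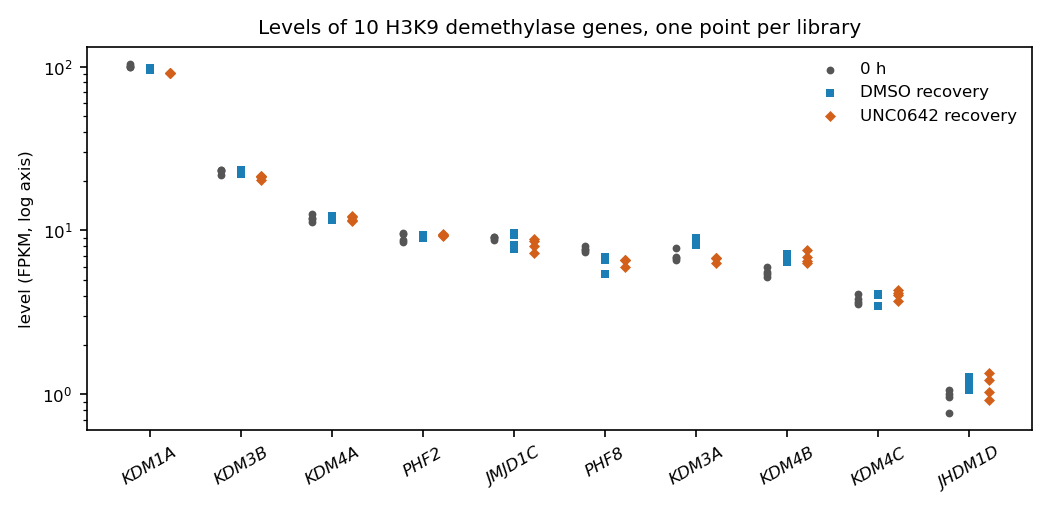
Level in FPKM (log axis) of each gene in each of the 12 libraries, genes ordered by their mean at 0 h; grey circles are 0 h, blue squares DMSO recovery and orange diamonds UNC0642 recovery. KDM1A lies between 90.77 and 102.96 FPKM in all libraries, above KDM3B, which reaches 23.44 FPKM, and JHDM1D lies lowest.

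KDM1A made up 55.5% to 57.0% of the summed FPKM of the 10 genes at 0 h, against 54.4% to 55.2% in DMSO recovery and 54.5% to 54.8% in UNC0642 recovery. The first 5 places and the last 2 of the order were held by the same genes in all 3 groups. The places between changed: KDM3A stood seventh at 0 h, sixth after DMSO recovery at 8.5 ± 0.417 FPKM and seventh after UNC0642 recovery at 6.69 ± 0.26 FPKM, while PHF8 stood sixth, then eighth in both recoveries. In DMSO recovery the ranges of PHF2 and JMJD1C, of JMJD1C and KDM3A, and of KDM4B and PHF8 overlapped. In UNC0642 recovery those of JMJD1C and KDM4B, KDM4B and KDM3A, and KDM3A and PHF8 overlapped, while JMJD1C lay wholly above KDM3A and PHF8. The mean FPKM places changed when single libraries were left out (2 places changed without 0 h replicate 2 or 3 and without UNC0642 recovery replicate 2 or 4, and 4 places without DMSO recovery replicate 2).

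From here on levels of 1 gene are compared between groups in CPM, which suits the count test. Tests are edgeR's quasi-likelihood test with Benjamini-Hochberg adjustment over all genes tested, and a gene is called where the adjusted p is under 0.05. Both recovery groups are compared with the same 0 h libraries, so those comparisons share their controls and are given side by side. In bulk RNA, fewer cells with a transcript and less of it per cell cannot be told apart.

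What differs from 0 h once methionine is returned was asked by DMSO recovery against 0 h. KDM3A and KDM4B rose, 1.17-fold and 1.19-fold, and KDM1A and PHF8 fell, 1.09-fold and 1.23-fold. The other 6 genes did not pass the test. These are 2 of 10 genes called higher and 2 of 10 called lower, where 22.4% and 21.7% of all genes tested were called in those directions, so the shares were close to the background. The groups did not overlap for 4 of the 10, against 38.3% of all genes. The median log2 fold change of the 10 was -0.05, beside 0.007 over all genes.

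UNC0642 recovery against 0 h gave 1 gene higher and 4 lower. KDM4B rose 1.18-fold. KDM1A fell 1.15-fold, KDM3B 1.13-fold, JMJD1C 1.14-fold and PHF8 1.22-fold. The background shares were 23.4% called higher, 23.6% called lower and 40.2% without overlap, and 4 of the 10 genes (the 4 that fell) had groups that did not overlap. The median log2 fold change of the 10 was -0.09, beside 0.006 over all genes.

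UNC0642 recovery against DMSO recovery asks what the inhibitor, present during restriction, left different after a day in full medium without it. KDM3A was 1.27-fold lower and KDM3B 1.09-fold lower. JMJD1C, the third gene of the KDM3 family, was not called (-0.09, adjusted p = 0.403), and 0 of the 10 were called higher (0 also by edgeR at an unadjusted p under 0.05, by DESeq2 and by limma-voom). Over all genes 2.06% were called higher and 2.53% lower, and 10.5% had groups that did not overlap. Against those shares 2 of the 10 were called lower and 3 did not overlap (KDM1A, KDM3A and KDM3B). The median log2 fold change was -0.03, beside -0.001 over all genes.

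**Figure D2:**
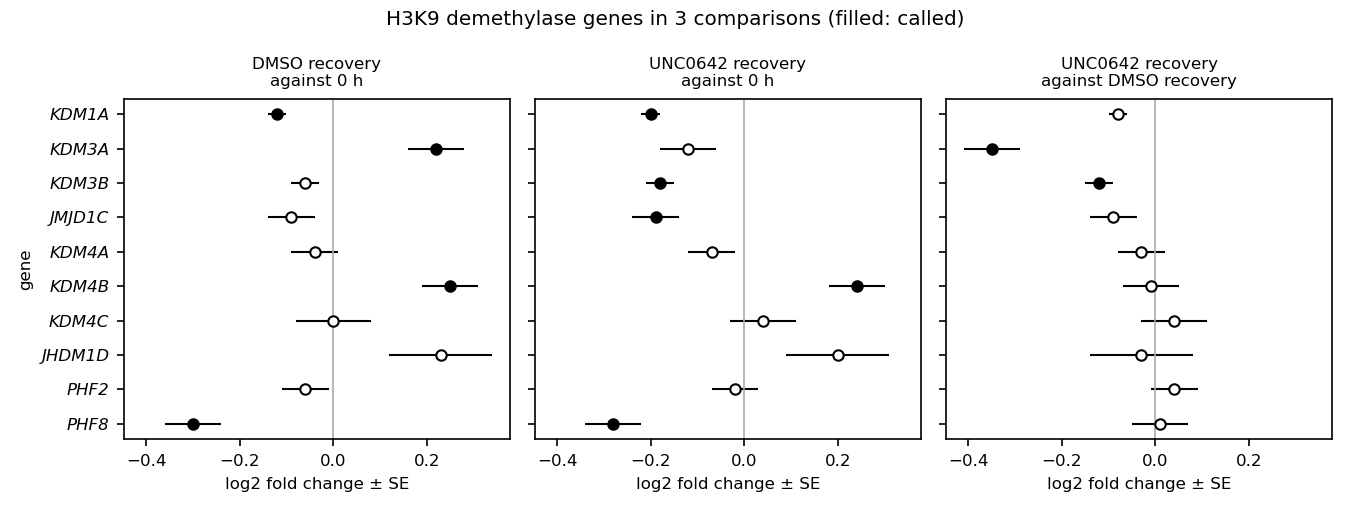
Log2 fold change with its standard error (horizontal axis) of each of the 10 genes in the 3 comparisons, with filled circles for genes called. KDM3A is the point farthest below 0 in the comparison of the recoveries, at -0.35, and lies at 0.22 in DMSO recovery against 0 h.

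KDM1A, also called LSD1, is the amine oxidase of the CoREST corepressor and had the smallest standard errors of the genes called. Its level at 0 h was 297.7, 300.8, 311.2 and 300.9 CPM in replicates 1 to 4. After DMSO recovery it was 281.0, 273.5, 277.0 and 282.4 CPM, and after UNC0642 recovery 264.0, 260.3, 261.4 and 267.4 CPM. The 3 groups did not overlap, with 0 h highest and UNC0642 recovery lowest. The log2 fold change was -0.12 ± 0.02 (SE, adjusted p = 0.000199) in DMSO recovery against 0 h and -0.20 ± 0.02 (adjusted p = 5.34e-08) in UNC0642 recovery against 0 h. Between the recoveries it was -0.08 ± 0.02 with an adjusted p of 0.0542, which missed the threshold. That difference was called by DESeq2 (adjusted p = 0.0368), by limma-voom (0.0423) and in log2(FPKM + 1) with limma (0.0495), and its adjusted p ranged from 0.0275 to 0.527 over the alternatives. The falls against 0 h were smaller with library totals only, at -0.07 (adjusted p = 0.0268) in DMSO recovery and -0.14 (adjusted p = 1.66e-05) in UNC0642 recovery. RefSeq places LUZP1 over part of the gene, and since the strand used in counting is not given in the sources used here, reads of the pair cannot be told apart where they overlap.

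**Figure D3:**
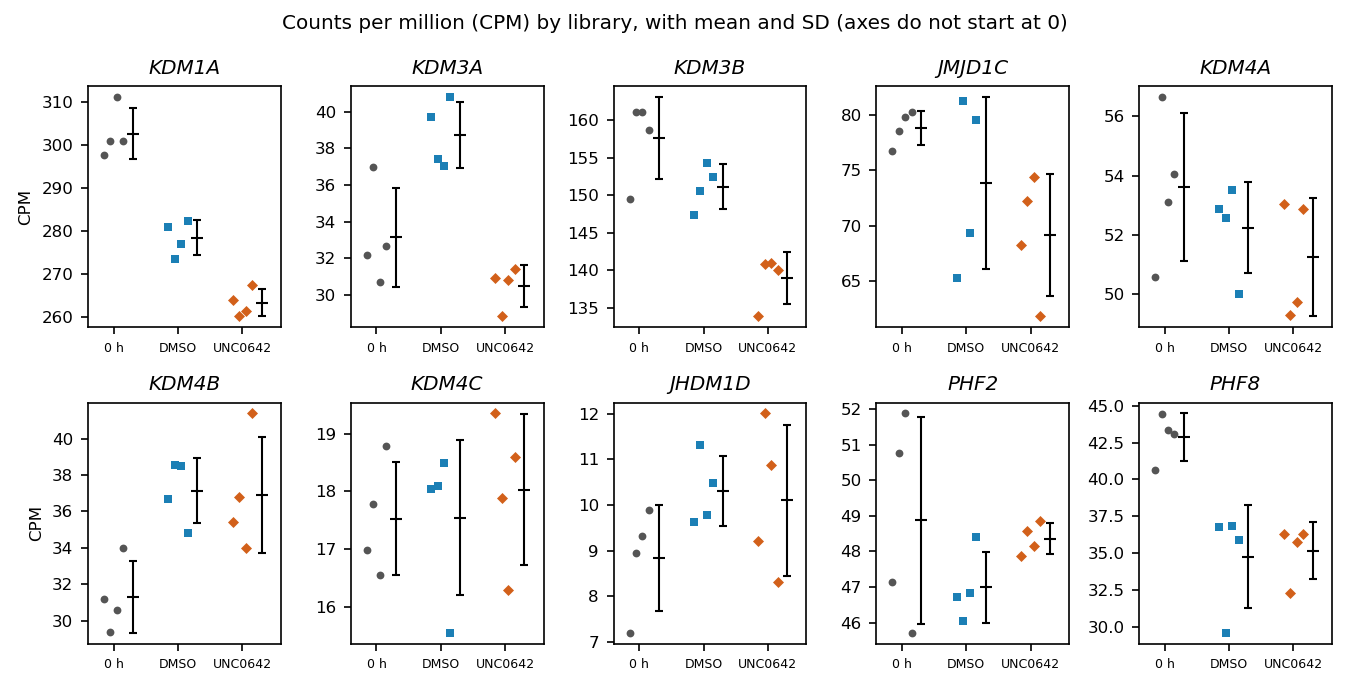
CPM of each of the 10 genes in each library (points, by group along the horizontal axis), with the mean and SD of 4 libraries beside them; the vertical axes differ and do not start at 0. KDM1A steps down from 0 h to DMSO to UNC0642 recovery without overlap, and KDM3A is highest in the 4 DMSO libraries.

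KDM3A, which removes the lower methylation states of H3K9, was the gene of the set that differed most between the recoveries. At 0 h its level was 32.2, 37.0, 30.7 and 32.7 CPM. It was 39.7, 37.4, 37.0 and 40.8 CPM after DMSO recovery and 30.9, 28.8, 30.8 and 31.4 CPM after UNC0642 recovery. The DMSO libraries were all above the other 8, but only just above 0 h replicate 2, whose 36.96 CPM lay under the lowest DMSO library at 37.04 CPM. The UNC0642 libraries lay among or below the 0 h libraries. DMSO recovery against 0 h gave a log2 fold change of 0.22 ± 0.06 (adjusted p = 0.00183). UNC0642 recovery against 0 h gave -0.12 ± 0.06 (adjusted p = 0.0824), with a 95% interval of -0.24 to -0.00. It was called without 0 h replicate 3 (-0.16, adjusted p = 0.0373) and in the long-gap libraries alone (-0.21, adjusted p = 0.0374). It was nearer to no change in the short-gap libraries alone (-0.03, adjusted p = 0.833), without 0 h replicate 2 (-0.06, adjusted p = 0.412) and with library totals only (-0.06, adjusted p = 0.384). The direct test between the recoveries gave -0.35 ± 0.06 (adjusted p = 7.87e-05), the place 103 of all 12741 genes by p and 115 of the 322 genes called lower by size. The rise over 0 h was not called without the 6 libraries with COL1A2 (0.23, adjusted p = 0.0805, 0 h replicate 4 then alone in its group) or in the long-gap libraries alone (0.15, adjusted p = 0.105). The difference between the recoveries was -0.35 in the short-gap libraries alone, 2 with UNC0642 against 1 with DMSO, with an adjusted p of 0.0649.

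KDM3B is the paralogue of KDM3A with the same substrate and was the more abundant of the pair. Its level was 149.5, 161.1, 161.0 and 158.7 CPM at 0 h, 147.3, 150.6, 154.2 and 152.4 CPM after DMSO recovery, and 133.8, 140.8, 141.0 and 140.1 CPM after UNC0642 recovery. The UNC0642 libraries were all below the other 8, while the DMSO and 0 h libraries overlapped. The log2 fold change was -0.18 ± 0.03 (adjusted p = 1.5e-05) in UNC0642 recovery against 0 h, -0.06 ± 0.03 (adjusted p = 0.121, 95% interval -0.12 to 0.00) in DMSO recovery against 0 h, and -0.12 ± 0.03 (adjusted p = 0.0164) between the recoveries. The last call was lost without DMSO recovery replicate 3 (adjusted p = 0.0633), DMSO recovery replicate 4 (0.0516) or UNC0642 recovery replicate 1 (0.0815), in log2(FPKM + 1) with limma (0.0911), and in the long-gap (0.188) or short-gap (0.509, 1 DMSO library) libraries alone, with values of -0.10 to -0.12. Without 0 h replicate 1, DMSO recovery against 0 h was called (-0.09, adjusted p = 0.0325).

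The ratio of KDM3A to KDM3B, in FPKM, describes how the balance of the pair moved. It was 0.313, 0.331, 0.281 and 0.298 at 0 h, 0.387, 0.361, 0.349 and 0.393 after DMSO recovery and 0.338, 0.293, 0.319 and 0.323 after UNC0642 recovery. The DMSO libraries had the highest ratios without overlap, and those of UNC0642 recovery and 0 h overlapped.

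JMJD1C, the largest protein of the KDM3 family, whose activity on H3K9 is less settled, was spread widely within the recovery groups. It was at 76.8, 78.5, 79.8 and 80.2 CPM at 0 h, at 65.3, 81.2, 69.3 and 79.5 CPM in DMSO recovery, and at 68.3, 72.2, 74.4 and 61.8 CPM after UNC0642 recovery. The 4 UNC0642 libraries were below every 0 h library, and the DMSO libraries lay on both sides. The log2 fold change was -0.19 ± 0.05 (adjusted p = 0.00548) in UNC0642 recovery against 0 h, -0.09 ± 0.05 (adjusted p = 0.167) in DMSO recovery against 0 h, and -0.09 ± 0.05 (adjusted p = 0.403, 95% interval -0.20 to 0.02) between the recoveries. In the long-gap libraries alone UNC0642 recovery against 0 h gave -0.08 (adjusted p = 0.329). DMSO recovery against 0 h was called without DMSO recovery replicate 2 (-0.14, adjusted p = 0.0465) and with the class as a covariate (-0.12, adjusted p = 0.0443), and its 1 short-gap library gave -0.29 against the 2 at 0 h (adjusted p = 0.00655). With scaling by library totals only, UNC0642 recovery against 0 h gave -0.13 (adjusted p = 0.0625), in log2(FPKM + 1) with limma -0.12 (0.165), and without the 6 libraries with COL1A2 -0.20 (0.0768). JMJD1C overlaps antisense RNAs and REEP3 in RefSeq, so its counts share that uncertainty.

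The KDM4 enzymes remove the higher methylation states of H3K9 and also act on lysine 36 of the same histone. KDM4B was the member that rose in both recoveries. Its level was 31.2, 29.4, 30.6 and 34.0 CPM at 0 h, 36.7, 38.6, 38.5 and 34.8 CPM after DMSO recovery, and 35.4, 36.8, 34.0 and 41.4 CPM after UNC0642 recovery. All DMSO libraries were above 0 h, and 3 of the 4 UNC0642 libraries were, since UNC0642 recovery replicate 3 fell just short of 0 h replicate 4. The log2 fold change was 0.25 ± 0.06 (adjusted p = 0.00121) in DMSO recovery and 0.24 ± 0.06 (adjusted p = 0.00155) in UNC0642 recovery, each against 0 h. Between the recoveries it was -0.01 (adjusted p = 0.973), with a 95% interval of -0.13 to 0.11. Without the 6 libraries with COL1A2, which left only 0 h replicate 4 at 0 h, the values were 0.12 (adjusted p = 0.375) and 0.08 (adjusted p = 0.613). The 1 short-gap DMSO library against the 2 at 0 h gave 0.18 (adjusted p = 0.226).

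KDM4A, the first-named member of the family, was at 50.6 to 56.7 CPM at 0 h, 50.01 to 53.5 CPM in the DMSO libraries and 49.3 to 53.1 CPM in the UNC0642 libraries, and the ranges overlapped throughout. Its log2 fold changes were -0.04 (95% interval -0.13 to 0.06), -0.07 (-0.16 to 0.03) and -0.03 (-0.12 to 0.07), with adjusted p of 0.525, 0.253 and 0.836 in DMSO recovery against 0 h, UNC0642 recovery against 0 h and UNC0642 against DMSO recovery. KDM4C was at 16.5 to 18.8, 15.5 to 18.5 and 16.3 to 19.4 CPM in 0 h, DMSO and UNC0642 recovery. Its log2 fold changes were -0.00, 0.04 and 0.04 in the same order, with 95% intervals of -0.15 to 0.15, -0.11 to 0.19 and -0.11 to 0.19 and adjusted p of 0.991, 0.674 and 0.832. Neither gene was called in any comparison. The ratio of KDM4B to KDM4A, in FPKM, was 0.415 to 0.504 at 0 h, 0.556 to 0.587 with DMSO and 0.535 to 0.627 with UNC0642, so both recoveries lay above 0 h without overlap.

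KDM4D, the remaining member of the family with enough counts to be tested, was at 3.455 ± 0.737 CPM at 0 h, 3.314 ± 0.803 CPM with DMSO and 3.309 ± 0.528 CPM with UNC0642. It was not called in any comparison (adjusted p of 0.795, 0.766 and 0.994).

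KDM4B, KDM4A and KDM3A are shown by sequence as examples of promoters that carry the core of the hypoxia response element. They were picked with their responses known, and a link between the core and the responses was not tested. The core was searched as ACGTG or GCGTG on both strands, in the 250 bases before each RefSeq start (build GRCh38.p14). CACGTG counts on both strands. Of all 35116 such windows, 43.2% hold a match, so its presence is common. The KDM4B window, chr19:4968863-4969112 on the + strand, holds 4 matches, and that of KDM4A, chr1:43649899-43650148 on the + strand, holds 1. Neither touches an exon in the GENCODE annotation of that assembly. For KDM3A annotated exons touch each of its overlapping windows, which hold the same match. Only the stretch around this 1 match, chr2:86441335-86441359 on the + strand, is printed, and it may itself lie in an exon. Capitals mark the matches, and each line runs 5′ to 3′.
KDM4B: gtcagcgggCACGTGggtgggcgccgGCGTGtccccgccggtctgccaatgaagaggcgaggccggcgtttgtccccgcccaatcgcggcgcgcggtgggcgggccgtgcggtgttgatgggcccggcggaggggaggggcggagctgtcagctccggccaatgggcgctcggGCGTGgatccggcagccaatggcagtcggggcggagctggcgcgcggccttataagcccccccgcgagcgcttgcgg
KDM4A: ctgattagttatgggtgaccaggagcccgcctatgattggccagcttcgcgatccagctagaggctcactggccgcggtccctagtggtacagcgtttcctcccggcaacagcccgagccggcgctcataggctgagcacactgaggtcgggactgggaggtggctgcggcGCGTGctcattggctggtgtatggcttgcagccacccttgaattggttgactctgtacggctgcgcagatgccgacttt
KDM3A: gggaggctgtGCGTGtcttgtgaga
KDM4C has 5 matches, KDM1A 2 and JHDM1D 1, JMJD1C has 2 before 1 of its 3 starts, and KDM3B, PHF2 and PHF8 have 0. A match is a description of the letters, and no binding was measured here. KDM4C, with the most matches, was not called in any comparison, and whether matches go with response was not tested.

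PHF8 reads methylated lysine 4 of histone H3 through its PHD finger and removes the lower methylation states of H3K9. It was at 40.6, 44.4, 43.3 and 43.1 CPM at 0 h, at 36.8, 29.6, 36.8 and 35.9 CPM in DMSO recovery, and at 36.3, 32.3, 35.8 and 36.3 CPM after UNC0642 recovery. All 8 recovery libraries were below all 4 at 0 h, and in each recovery replicate 2 was the lowest. The log2 fold change was -0.30 ± 0.06 (adjusted p = 0.000117) in DMSO recovery and -0.28 ± 0.06 (adjusted p = 0.000181) in UNC0642 recovery, each against 0 h. Between the recoveries it was 0.01 (adjusted p = 0.954, 95% interval -0.11 to 0.13). The 1 short-gap DMSO library against the 2 at 0 h gave -0.23 (adjusted p = 0.101).

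PHF2, a related enzyme that works with the DNA-binding protein ARID5B, ranged over 45.7 to 51.9 CPM at 0 h, 46.0 to 48.4 CPM with DMSO and 47.9 to 48.9 CPM with UNC0642. The recovery libraries lay inside the range of 0 h. Its log2 fold changes of -0.06 (95% interval -0.15 to 0.04), -0.02 (-0.11 to 0.08) and 0.04 (-0.05 to 0.13) had adjusted p of 0.349, 0.804 and 0.722.

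JHDM1D, which acts on methylated lysine 9 and lysine 27 of histone H3, had the fewest counts, 119 to 219 per library, and the widest relative spread at 0 h (13.1% of the mean) and in UNC0642 recovery (16.4%), though not in DMSO recovery (7.54%, where JMJD1C had 10.5%). It was at 7.19, 8.95, 9.32 and 9.89 CPM at 0 h, at 9.63, 11.3, 9.78 and 10.5 CPM in DMSO recovery, and at 9.21, 12.01, 10.9 and 8.31 CPM after UNC0642 recovery. The groups overlapped. Its log2 fold change was 0.23 ± 0.11 (adjusted p = 0.104, 95% interval -0.00 to 0.46) in DMSO recovery and 0.20 ± 0.11 (adjusted p = 0.152, 95% interval -0.03 to 0.43) in UNC0642 recovery, each against 0 h, and -0.03 (adjusted p = 0.941) between the recoveries. These intervals hold the size at which KDM4B was called, so a rise of that size is not excluded. In the long-gap libraries alone both were called, at 0.38 (adjusted p = 0.0212) and 0.50 (adjusted p = 0.00479). UNC0642 recovery was also called without its replicate 4 (0.28, adjusted p = 0.0459), and DMSO recovery with library totals only (0.28, adjusted p = 0.0461). Other single libraries moved the values toward no change. Without 0 h replicate 1 they were 0.14 in DMSO recovery (adjusted p = 0.371) and 0.11 in UNC0642 recovery (adjusted p = 0.479). Without UNC0642 recovery replicate 2, UNC0642 recovery against 0 h gave 0.11 (adjusted p = 0.485). The rise was absent in the short-gap libraries alone, where UNC0642 recovery gave -0.13 (adjusted p = 0.514) and the 1 DMSO library 0.00. With the length-gap class as a covariate both recoveries gave 0.20 and were not called (adjusted p = 0.15 and 0.143).

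The 10 genes did not follow 1 pattern over the 12 libraries. Over the 45 pairs the median Pearson correlation of log2 CPM was 0.08. The highest were 0.87 for KDM1A with KDM3B and 0.80 for KDM1A with PHF8, and the lowest -0.73 for KDM4B with PHF8 and -0.71 for KDM1A with KDM4B. The 12 libraries form 3 groups, so these values hold mainly the group differences given above. Among 11389 tested genes whose log2 CPM averaged 1 or more, the closest to KDM1A were HSP90AB1, a cytosolic chaperone (r = 0.979), and GART, a purine synthesis enzyme (0.973). The closest to KDM3A were KIAA1143 (0.91) and SOX4, a transcription factor (0.893), where KIAA1143 had log2 fold changes of 0.22, -0.14 and -0.36 in the 3 comparisons. Those for KDM3B were ZNF544 (0.966) and SMARCC1, a SWI/SNF subunit (0.965). The correlation does not measure size: ZNF544 had log2 fold changes of -0.37, -0.78 and -0.41, where KDM3B had -0.06, -0.18 and -0.12. USP8 and RIF1 were closest to JMJD1C (0.962 and 0.96), KSR1 and ADARB1 to KDM4B (0.949 and 0.944), and RAB4A and COPS4 to PHF8 (0.958 and 0.954).

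Related lists were counted in the same fit, and their shares are to be read against all genes tested, of which 22.4% rose and 21.7% fell in DMSO recovery against 0 h, 23.4% rose and 23.6% fell in UNC0642 recovery against 0 h, and 2.06% rose and 2.53% fell between the recoveries. The median log2 fold change of all genes was 0.007, 0.006 and -0.001 in that order. Of 20 other demethylase and Jumonji genes tested, 5 rose and 6 fell in DMSO recovery and 4 rose and 7 fell in UNC0642 recovery, each against 0 h, and 0 were called between the recoveries by edgeR, DESeq2 or limma-voom (2 higher and 1 lower by edgeR at an unadjusted p under 0.05). The medians of the list were -0.08, -0.08 and -0.01. HR, the hairless protein, a relative of the KDM3 enzymes, rose 1.52-fold to 35.35 ± 2.0 CPM after DMSO recovery (adjusted p = 4.46e-10) and 1.35-fold to 31.33 ± 1.35 CPM after UNC0642 recovery (adjusted p = 3.7e-07), from 23.2 ± 1.34 CPM. JMJD8 and JMJD6 fell 1.14-fold and 1.13-fold in DMSO recovery. In UNC0642 recovery KDM1B, the paralogue of KDM1A, rose 1.18-fold (adjusted p = 0.000385), and C14orf169 fell 1.54-fold from 6.113 CPM. The other genes of this list called in both recoveries, named after their values were seen as are all further genes given without values, were KDM1B, KDM5B and JMJD7, which rose, and KDM5C, JMJD4, JMJD8, C14orf169 and MINA, which fell.

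Of 16 tested genes of the LSD1 corepressor complex, the partners of KDM1A, 3 rose and 5 fell in DMSO recovery, 4 rose and 7 fell in UNC0642 recovery (all genes 22.4% and 21.7%, then 23.4% and 23.6%), and 0 were called between the recoveries by edgeR, DESeq2 or limma-voom (0 higher and 5 lower by edgeR at an unadjusted p under 0.05). The median log2 fold changes were -0.05, -0.09 and -0.04. HDAC1, a deacetylase of the complex, fell 1.14-fold (adjusted p = 4.85e-07) and 1.2-fold (adjusted p = 1.05e-09) against 0 h. ZNF217 fell 1.19-fold and KIAA0182 rose 1.16-fold in DMSO recovery, and RCOR2 fell 1.37-fold in UNC0642 recovery. HMG20B and ZMYM3 also rose, and the corepressors CTBP1 and CTBP2 also fell, in both.

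The opposing enzymes were counted in the same way. Of 13 H3K9 methyltransferase and cofactor genes, 2 rose and 5 fell in DMSO recovery, 1 rose and 5 fell in UNC0642 recovery (all genes 22.4% and 21.7%, then 23.4% and 23.6%), and 1 fell between the recoveries (all genes 2.53%). The medians were -0.09, -0.10 and -0.00. EHMT1, a target of UNC0642, fell 1.1-fold in both recoveries (adjusted p = 0.00543 and 0.00478), from 92.69 ± 1.84 CPM to 84.52 ± 4.29 and 84.44 ± 2.59 CPM. EHMT2, the other target, was at 127.7 ± 4.75, 125.1 ± 4.78 and 124.2 ± 1.44 CPM and was not called (adjusted p of 0.5, 0.347 and 0.931). TRIM28, the corepressor of zinc-finger proteins, fell 1.09-fold and 1.1-fold, and SETDB1, its methyltransferase partner, 1.16-fold and 1.21-fold. SUV39H1 and SUV39H2, methyltransferases of constitutive heterochromatin, also fell in both recoveries, SETDB2 rose in both and PRDM16 rose in DMSO recovery. The gene that fell between the recoveries was ATF7IP, a cofactor of SETDB1, 1.19-fold lower with UNC0642 (adjusted p = 0.00785). Of 9 readers of the mark, 2 rose and 2 fell in DMSO recovery, 0 rose (0 also by DESeq2, by limma-voom and by edgeR at an unadjusted p under 0.05) and 2 fell in UNC0642 recovery, and 1 fell between the recoveries, with medians of -0.04, -0.06 and -0.04. That gene was ATRX, a chromatin remodeller, with a log2 fold change of -0.19, though the libraries of the recovery groups overlapped for it. CBX3, an HP1 protein, fell 1.09-fold and 1.12-fold against 0 h. ATRX rose 1.12-fold, CBX5 also rose, and CDYL fell 1.09-fold in DMSO recovery, and MORC2 fell 1.13-fold in UNC0642 recovery.

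**Figure D4:**
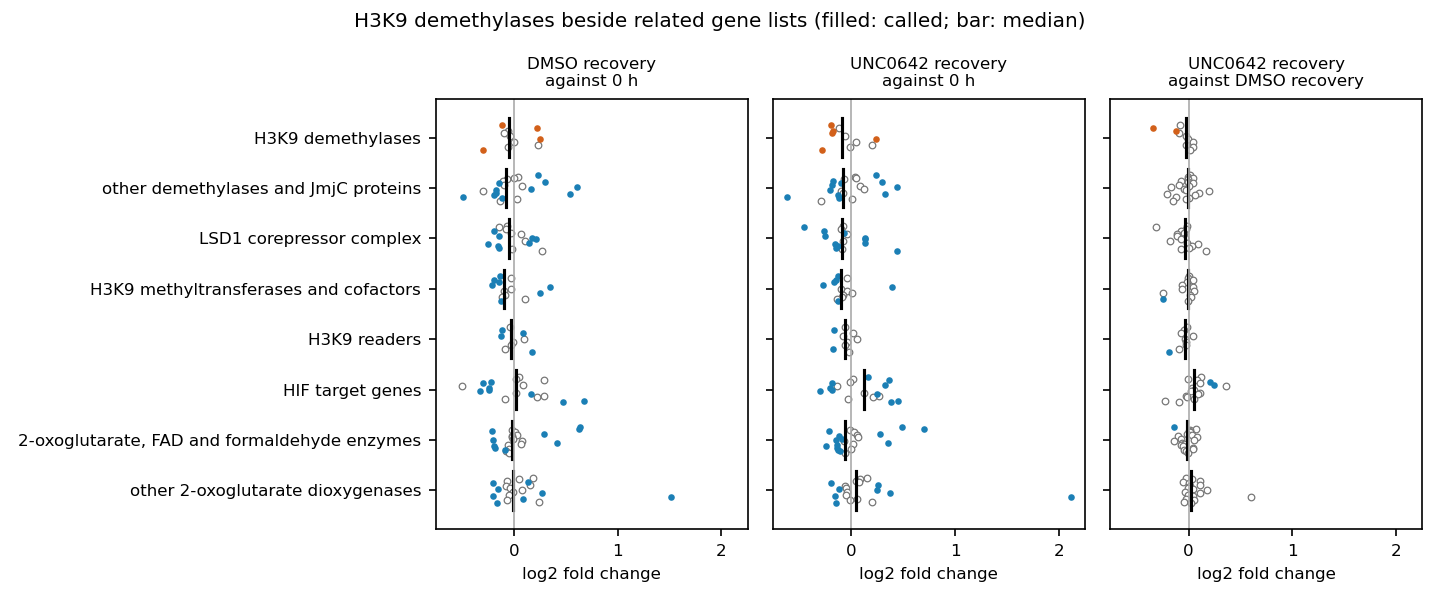
Log2 fold change of every tested gene of each list (rows) in the 3 comparisons; filled points are called, open points are not, and the black bar is the list's median. In the comparison of the recoveries the H3K9 demethylases have 2 filled points, both below 0, and the other demethylases and the LSD1 complex have 0.

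The lists for cofactors and oxygen were counted as well. Of 17 HIF target genes, which share a known regulator with KDM3A and KDM4B, 3 rose and 5 fell in DMSO recovery and 6 rose and 4 fell in UNC0642 recovery (all genes 22.4% and 21.7%, then 23.4% and 23.6%), with medians of 0.02 and 0.12, and 0.05 between the recoveries. LDHA, SLC2A1 and PGK1, which serve glycolysis, fell 1.18-fold, 1.26-fold and 1.18-fold in DMSO recovery and 1.14-fold, 1.23-fold and 1.16-fold in UNC0642 recovery. ADM fell in both as well, while P4HA2, PFKFB4 and DDIT4 rose in both. Between the recoveries 2 HIF target genes were called higher and 0 lower (all genes 2.06% and 2.53%). DESeq2 and limma-voom also called 0 lower, and 1 was lower by edgeR at an unadjusted p under 0.05. Those called higher were NDRG1, by 1.18-fold (adjusted p = 0.00133), and BNIP3, by 1.16-fold (adjusted p = 0.0402). A link of these genes to the KDM3A difference was not tested. Of 21 enzymes that make or use 2-oxoglutarate, FAD or formaldehyde, 4 rose and 5 fell in DMSO recovery, 4 rose and 9 fell in UNC0642 recovery, and 0 rose (1 by edgeR at an unadjusted p under 0.05, 0 by DESeq2 and limma-voom) and 1 fell between the recoveries, with medians of -0.02, -0.06 and -0.01. IDH1 and IDH2, which make 2-oxoglutarate, both rose 1.55-fold in DMSO recovery, and 1.4-fold and 1.63-fold in UNC0642 recovery, and OGDH, which consumes it, rose 1.22-fold and 1.21-fold. D2HGDH rose, and IDH3B, PSAT1, FH, FLAD1 and ADH5 fell, in both as well. IDH1 was the gene that fell between the recoveries, by 1.1-fold (adjusted p = 0.0302). Of 19 other 2-oxoglutarate dioxygenases 4 rose and 4 fell against 0 h in each recovery, and 0 were called between the recoveries by edgeR, DESeq2 or limma-voom (2 higher by edgeR at an unadjusted p under 0.05), with medians of -0.01, 0.04 and 0.02. PLOD2, a collagen lysyl hydroxylase, rose 1.2-fold and 1.3-fold, and OGFOD1 fell 1.12-fold and 1.11-fold, while P4HA3 also rose and ALKBH1 and LEPRE1 also fell in both. EGLN2, an oxygen-sensing prolyl hydroxylase, fell 1.12-fold in DMSO recovery, and ALKBH2, a DNA repair enzyme, rose 1.2-fold in UNC0642 recovery.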

How the data were processed

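Each deposited table lists for every gene an expected count (an estimate by RSEM, often not whole) and an FPKM value made by the authors, beside its length and effective length, per the file headers. RSEM 1.2.4, Bowtie and hg18 are named in the submitters' processing notes. The strand of the kit and of the counting is not given in the sources used here. Of the expected counts greater than 0, 53.3% to 57.6% per library were whole to within 0.005.

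Groups come from the sample titles and treatment labels. Expected counts were rounded to whole numbers. The filter filterByExpr left 12741 of 18969 genes for edgeR 4.0.16 in R 4.3.3 (quasi-likelihood test, TMM factors, two-sided, Benjamini-Hochberg adjustment), 1 fit over the 12 libraries with 9 residual degrees of freedom. CPM uses TMM-scaled library sizes, and FPKM was used as deposited to compare levels between genes. No library was a duplicate of another in its group: chi-square per degree of freedom was 2.04 to 3.56 in the 18 pairs of the same group. This check did not cover pairs from different groups. The 10 genes and the 7 related lists were chosen with earlier results of these data known. All 10 are named. From each list the text names up to 3 called genes per comparison with the smallest p, no overlap of groups and an average log2 CPM of 1 or more, and always EHMT1, EHMT2 and KDM4D. A gene that this rule names is not reported here. For each of the 10 that was called, the 2 genes with the most similar pattern are named.

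Alternatives were RLE factors, totals only, no filter or a stricter one (1 CPM in 4 libraries), effective-length offsets, a block for replicate number, fits of just the 8 libraries compared, limma-voom (limma 3.58.1), DESeq2 1.42.0, log2(FPKM + 1) in limma, the length-gap class as a covariate or each class alone, leaving out the libraries with COL1A2 above 1 CPM, and leaving out each library in turn. Levels without the library that stands apart were added after seeing the data. The test was tested on simulated data. Sequences are from RefSeq's promoter table (GRCh38.p14), and RefSeq's gene table (another build than hg18) was used for names and overlaps only. Protein sequences were not used here.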

Additional observations from a re-analysis of the deposited data

Results flagged for a closer look

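Of 30 groups of 4 libraries (10 genes in 3 groups), 4 held a library that stood apart from the other 3 by Dixon's test at its 95% critical value, and chance flags about 1 in 20. PHF8 was lowest in DMSO recovery replicate 2, at 29.6 CPM where the other 3 were 35.89 to 36.82, and the group mean is 34.77 CPM with it and 36.5 without it. It was also lowest in UNC0642 recovery replicate 2, at 32.3 CPM beside 35.78 to 36.31, with a mean of 35.17 CPM that becomes 36.12 without it. All of these values lie below the lowest 0 h library at 40.61 CPM. KDM3B was lowest in UNC0642 recovery replicate 1, at 133.8 CPM beside 140.1 to 141.0, and the mean of 138.9 CPM becomes 140.6 without it. The difference between the recoveries in KDM3B was not called without that library. KDM4C was lowest in DMSO recovery replicate 4, at 15.5 CPM beside 18.05 to 18.49, with a mean of 17.54 CPM that becomes 18.21 without it.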

How the results depend on the processing

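Of 660 values of single genes under 26 alternative settings, 0 reversed a call, and 42 differed in sign from a value without being called on either side. The absence of reversals does not mean that every call held. In each comparison some calls were lost and others gained under these settings, which reuse the same libraries. Without the 6 libraries with COL1A2 above 1 CPM, 2 of the 10 genes were called in DMSO recovery against 0 h (4 with all libraries) and 3 in UNC0642 recovery against 0 h (5 with all libraries), and fewer samples were tested there. Between the recoveries 2 genes were called with all libraries, 1 in the long-gap libraries alone, 0 in the short-gap libraries alone (2 with UNC0642 against 1 with DMSO, edgeR, with 2 at an unadjusted p under 0.05; KDM3A there had -0.35 and an adjusted p of 0.0649), and 1 to 2 with each library left out in turn. No pairing of the samples by replicate number was seen (same-numbered correlations -0.153 to 0.065). These values cannot settle whether same-numbered samples were prepared together. With the replicate block KDM1A was called between the recoveries (-0.08, adjusted p = 0.0499). Over all genes, calls numbered 5617, 5990 and 584, and fell to 2684 (short-gap) and 2987 (without COL1A2 libraries) in DMSO recovery against 0 h, 2836 (without COL1A2 libraries) in UNC0642 recovery against 0 h, and 267 (long-gap), 123 (short-gap) and 277 (without COL1A2 libraries) between the recoveries. The share of calls that were higher was 50.8%, 49.8% and 44.9%, against 67.5%, 67.5% and 51.3% with library totals only and 68.5%, 67.3% and 48.9% with log2 FPKM. The number of libraries limits the precision, and the counts of JHDM1D are the lowest.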
